A study of Danio rerio with 24 samples.

Results

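NF-kB is a family of transcription factors built from pairs of Rel-domain subunits, and it is known for the rapid transcription of inflammatory and survival genes. In mammals, IkB inhibitors hold these pairs in the cytoplasm until IkB kinase marks the inhibitor for destruction, and a set of nuclear IkB proteins acts on the pairs at DNA. The genes encoding 5 subunits and 5 IkB-type proteins of the zebrafish were taken by name from the deposited table, ignoring case. The 5 IkB-type genes are grouped here as inhibitors, nuclear ones included. All 10 were found, each on 1 row, among 18987 listed genes.

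RNA was sequenced from heart ventricles of wild-type adult zebrafish after cryoinjury, a local freezing injury of the ventricle, in fish that swam (exercised) or did not (non-exercised), at 7 and 14 days post injury (dpi). Exercised cryoinjured, non-exercised cryoinjured and non-exercised sham-operated fish had 4 samples each at 7 dpi and 4 each at 14 dpi, 24 samples in 6 groups. Every sample pooled 3 or 4 ventricles, so that differences between single fish are not visible in it, and the tissue was taken whole, so that fewer cells of a type and less RNA per cell cannot be told apart.

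The measurement used here is the mean normalized read count of each gene, 1 value per gene averaged by the authors over the samples of their model. It has no separate value for exercise, injury or time, and which samples entered it is not given in the sources used here. The paper's sequencing methods name only exercised and control pools from cryoinjured fish, and whether sham-operated samples entered the mean is unknown. No value per sample, SD or n can be attached to it, and exercised and non-exercised ventricles were not compared. The question of which NF-kB genes respond to swimming is therefore not addressed. The count of a gene also grows with the length of its transcript, and transcript lengths were not used here, so each order given is one of sequencing reads and not of RNA molecules.

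The mean normalized counts of all listed genes summed to 11824275, and the depth of each sample is unknown. Of the 18987 genes, 18978 had a mean above 0, with a median of 79.7 and quartiles of 17.3 and 266.3. In the check of the tissue, 5 of 6 cardiomyocyte markers were listed, with mean normalized counts between 37309 and 163295, and all 4 markers of fibroblasts were listed, between 469 and 12777. The atrial myosin gene myh6 had a mean normalized count of 3281 although the atrium was dissected away. The other atrial marker, nppa, had 25667, but the paper also uses it as a marker of cardiac stress. The paper further lists nppa as an injury-response gene of the injured area. The source of the myh6 and nppa reads was not tested here. Of 3 erythrocyte markers 2 were listed, hbaa1 and alas2, with 25133 and 4339. All 4 endothelial markers were listed, on 5 rows, between 222.3 and 3550. The 4 macrophage markers stood on 15 rows with a median of 38.6, in which mpeg1.1, csf1ra and marco had 234.9, 247.9 and 464.9 and the 12 rows named mfap4 had between 2.49 and 97.2. The 3 epicardial markers had between 111.9 and 250.2 and the 3 neutrophil markers between 13.4 and 43.2. Of the 4 lymphocyte markers only lck was listed, with 7.28. The part of any cell type in the NF-kB reads was not tested.

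The subunit genes had mean normalized counts between 80.3 and 413.5. Highest among them was relb (ENSDARG00000086173), with 413.5, above 82.7% of all genes with reads. In mammals its product pairs mainly with p52 and acts in the non-canonical branch of the pathway. Next came nfkb2 (ENSDARG00000038687), which encodes the p100 precursor of p52, with a mean normalized count of 295.0, above 76.8% of genes. Both were above the third quartile of all genes. Among only the genes with a mean count of at least 10, or only those matched to a protein-coding gene, nfkb2 ranked above 71.8% and 73.1% and so below the third quartile, and relb stayed above it, with 78.9% and 79.9%.

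The subunits of the canonical branch had fewer reads. For rela (ENSDARG00000098696), which encodes the p65 subunit that carries a transactivation domain, the mean normalized count was 121.6. For nfkb1 (ENSDARG00000105261), which encodes the p105 precursor of p50, it was 96.1. The rel gene (ENSDARG00000055276) encodes c-Rel, a subunit known in mammals mainly from lymphocytes, and its mean normalized count of 80.3 lay near the median of all genes, above 50.1% of them.

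The inhibitors spread more widely than the subunits, with mean normalized counts between 20.6 and 1355. Their top value belonged to nfkbiab (ENSDARG00000007693), one of the paired zebrafish genes for IkB alpha, the inhibitor that NF-kB itself induces in a feedback loop in mammals. Its mean normalized count of 1355 was above that of 94.3% of genes and made up 50.9% of the sum over the 10 NF-kB genes, 2663. That sum was 0.0225% of all mean counts.

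The other copy, nfkbiaa (ENSDARG00000005481), had a mean normalized count of 160.4, above 64.9% of genes. The deposited table annotates both copies with the same human gene, and how reads shared between them were counted is not given in the sources used here, so their separate values are uncertain to that extent. A further cytoplasmic inhibitor gene, nfkbie (ENSDARG00000068367), which encodes IkB epsilon, had 93.0. The gene for IkB beta, nfkbib, is not among the 10 genes and had a mean normalized count of 345.7, between those of nfkbiab and nfkbiaa. It is named here after its value was seen.

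The genes for nuclear IkB proteins had the fewest reads of the 10. The bcl3 gene (ENSDARG00000087832), whose mammalian product binds p50 and p52 pairs on DNA, had a mean normalized count of 27.2. For nfkbiz (ENSDARG00000102097), which encodes IkB zeta, a nuclear cofactor of secondary inflammatory genes in mammals, it was 20.6. Among all genes with reads both were above the first quartile and below the median, and the other 8 genes were above the median. These places depend on the genes ranked against. Among genes with a mean count of at least 10, bcl3 and nfkbiz were below the first quartile. The same held among genes matched to a protein-coding gene. In both settings nfkb1, nfkbie and rel were below the median, which left 5 genes above it. Of those 5, rela lay close to the median with the minimum count of 10, above 50.1% of the genes. Between nfkbiab and nfkbiz the mean normalized counts differed 65.8-fold, not corrected for transcript length.

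Neighbours in this order were often close. The mean normalized counts of nfkb1 and nfkbie differed 1.03-fold and those of nfkbie and rel 1.16-fold. The widest steps were from nfkbiab to relb, 3.28-fold, and from rel to bcl3, 2.95-fold. Without a spread over samples, whether any of these steps is larger than the error cannot be said.

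**Figure D1:**
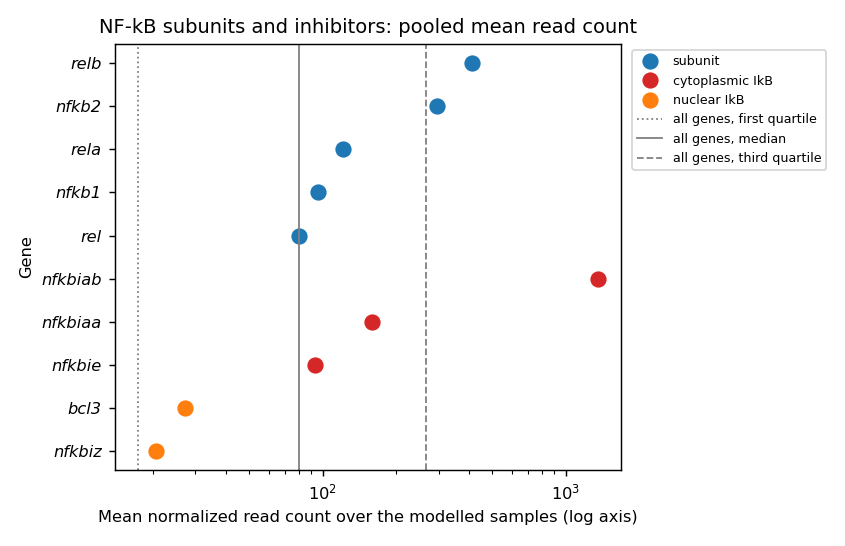
Mean normalized read count (x axis, log scale) of the 10 NF-kB genes (y axis), coloured by role, 1 pooled value per gene with no error bar; grey lines mark the quartiles of all genes with reads at 17.3, 79.7 and 266.3. The nfkbiab gene stands at 1355, the 5 subunit genes lie between 80.3 and 413.5, and bcl3 and nfkbiz lie below the median.

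Upstream of the family lie the kinases that release NF-kB. Of 12 genes for the IkB kinase complex and the kinases and adaptors around it, 10 were listed, with a median mean normalized count of 249.7. The map3k14a and map3k14b genes were not among those listed, so this list gives no level for them. Highest were map3k7, the gene for TAK1, with 766.2, and chuk, the gene for IKK alpha, with 560.2. The lowest were map3k8, a kinase that binds p105 in mammals, with 28.5, and ikbkb, the gene for IKK beta, with 86.1.

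Of 15 adaptor genes, 14 were listed, with a median mean normalized count of 71.9. The range ran from traf1 and traf5, with 12.1 and 13.0, to ticam1 and traf2b, with 117.8 and 197.7. Of 13 receptor genes, 12 were listed, with a median of 52.3. The TNF receptor gene tnfrsf1a had the highest mean normalized count of them, 736.5, followed by il1rapl1a of the interleukin 1 receptor family with 480.9. The list holds il1rapl1a by its family, and its place there does not establish a role in NF-kB signalling. Whether il1rapl1a acts on NF-kB was not tested. The Toll-like receptor genes tlr4ba and tlr2 were lowest, with 4.35 and 14.9.

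Ligand genes had the lowest median of the pathway lists. Of 5 genes, 4 were listed, and their median mean normalized count was 5.22. The cytokine genes tnfa, tnfsf11 and il1b had 3.88, 4.16 and 6.28, and tnfb had 30.7.

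Of 11 negative regulators other than the 10 genes, among them the IkB genes nfkbib and nfkbid, 9 were listed, on 10 rows because the symbol otulina stands on 2 rows. The nfkbid gene was not among those listed. Their mean normalized counts had a median of 98.4. The ubiquitin-binding protein gene tnip1, which acts with A20 in mammals, and the deubiquitinase gene usp7 were highest, with 1523 and 1049. The place of usp7 in this list was a choice and does not establish it as a negative regulator. Whether usp7 acts for or against NF-kB in these ventricles was not tested. Lowest were cyldb, with 9.94, and 1 of the otulina rows, with 36.7.

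In the same unit, the medians of the 5 subunit genes and of the 5 grouped as inhibitors, nuclear ones included, were 121.6 and 93.0. Of those inhibitors, the cytoplasmic ones had 1355, 160.4 and 93.0 and the nuclear ones 27.2 and 20.6. Without the nuclear ones the middle value is that of nfkbiaa, 160.4, above the subunit median, so this order depends on the grouping. The median was 249.7 for the list of the IkB kinase complex and the kinases and adaptors around it. The medians of the remaining lists were 98.4 for the negative regulators, 71.9 for the separate adaptor list, 52.3 for the receptors and 5.22 for the ligands. The lists differ in size, their transcript lengths were not compared, and no test was made between them.

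**Figure D2:**
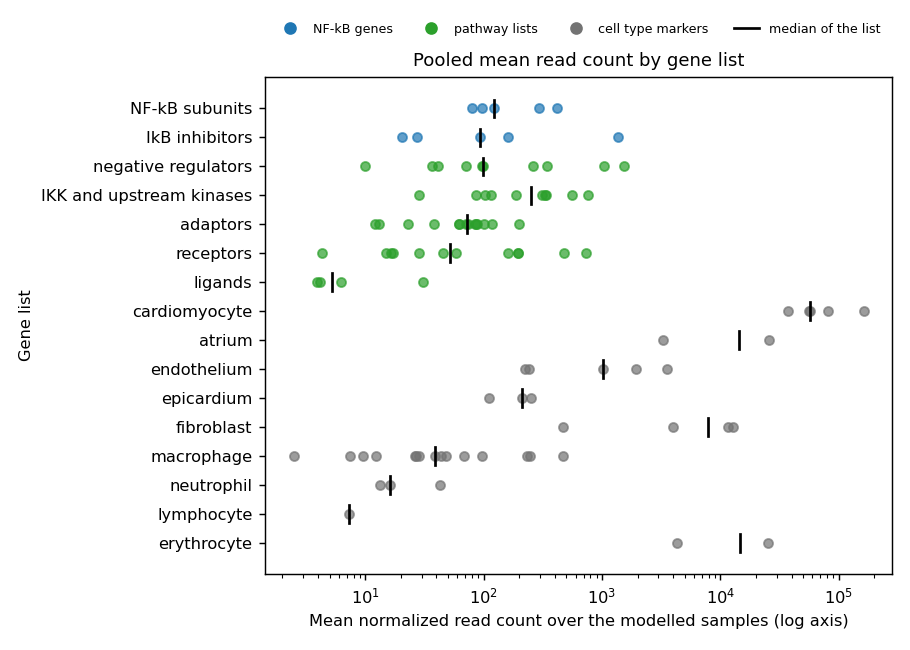
Mean normalized read count (x axis, log scale) of the 10 NF-kB genes and of every listed gene of the pathway lists and the cell type marker lists (y axis), 1 point per row of the deposited table, with a black line at each list's median. The cardiomyocyte markers lie between 37309 and 163295, the NF-kB genes between 20.6 and 1355, and 3 of the 4 ligand genes below 10.

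In gene order on the reference assembly GRCz12tu, in which all 10 symbols were found, 0 pairs of the 10 genes were neighbouring protein-coding genes. A chromosome was shared in 2 pairs: nfkb2 and rel, with 94 protein-coding genes between them, and nfkbiaa and nfkbie, with 691.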

How the data were processed

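The authors sequenced RNA from pooled ventricles with an Illumina NextSeq and mapped the reads to genome build GRCz10. The submitters' processing notes name TopHat2 2.1.0, HTSeq 0.6.0 and DESeq2, without saying which step each served. The signal used here is the deposited column of mean normalized counts. From its name it was read as gene read counts divided by size factors and averaged over the authors' modelled samples. The deposited table also has 7 columns of the authors' own comparisons (log2 fold change, standard error, statistic, p-value, adjusted p-value and a fold change at each time point), which were not used. It has 0 columns named for a sample.

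Each member was ranked by the percent of genes with a mean count above 0 that lay below it. The named genes were all members and the 2 highest and 2 lowest genes of each pathway list. Exceptions were nfkbib, genes named as not listed and the cell type markers named in the check of the tissue. The naming rule did not cover those markers. The members and lists were chosen with earlier results of these data known. No test between groups was made. The ranking step was run on a simulated list with known ranks, which checks its arithmetic only. The software was numpy 2.4.6, pandas 2.3.3, scipy 1.17.1 and matplotlib 3.10.9 under Python 3.11.15.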

Additional observations from a re-analysis of the deposited data

How the results depend on the processing

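The median percentile of the 10 NF-kB genes by mean normalized count was 56.6 among all genes with reads. It was 47.0 among the 15560 genes with a mean count of at least 10, and 50.3 among the 14330 genes matched by symbol to a protein-coding gene of the reference, an alternative chosen after seeing the data. Both leave out genes with few reads or without a matched symbol, and every one of the 10 genes ranked lower under both, by 1.25 to 16.0 points with the minimum count and by 0.780 to 7.45 points among the matched genes. With the minimum count the direction was fixed in advance. The lowest of the 10 genes had 20.6, so only genes ranked below all of them were left out. Under both, nfkb2 fell below the third quartile, nfkb1, nfkbie and rel below the median, and bcl3 and nfkbiz below the first quartile of the genes ranked. The identity of the proteins and the search of promoters for kB motifs were planned and not run, since they need sequences that were not used here. Values per kilobase of coding length need lengths that were not used here, and were not computed. A ratio of inhibitor to subunit levels was not computed either. No paired analysis was possible because the measurement is 1 pooled value per gene. No interval is given, since neither depth nor spread per sample is known.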
